A study of Saccharomyces cerevisiae with 4 samples.

Results

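The genes for the subunits of RNA polymerases I, II and III were followed in 4 poly(A) RNA sequencing libraries of the haploid laboratory yeast Saccharomyces cerevisiae BY4741. The 32 genes were chosen by systematic name from the 7126 rows of the table, and all 32 were abundant enough to enter the test, which covered 6277 genes. They are 8 genes of Pol I (with the initiation factor gene RRN3), 7 of Pol II, 10 of Pol III, 2 shared by Pol I and III and 5 shared by all of these enzymes. All libraries came from cells with CRISPR interference, in which a guide RNA directs a dead Cas9 protein that blocks transcription where it binds. In 2 libraries, A and B, the guide was +116, directed against the GAL10 noncoding RNA. In the other 2, also A and B, its sequence was scrambled. The cells grew in synthetic glucose medium lacking leucine and uracil, from an optical density of 0.1 to 0.4. Whether A and B are separate cultures is not stated in the sources used here, so p-values measure the spread between these libraries, which may be technical.

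Each nuclear RNA polymerase has its own transcripts. Pol I makes the large ribosomal RNA precursor, Pol II makes messenger RNAs and many noncoding RNAs, and Pol III makes transfer RNAs and the 5S ribosomal RNA. The enzymes share a set of small subunits, and each has its own pair of large catalytic subunits and its own peripheral subunits. In growing yeast, ribosomal and transfer RNA synthesis takes up a large part of all transcription, and the genes of Pol I and Pol III are known to be regulated with ribosome biogenesis genes.

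An upstream motif named PAC was found for most Pol I and Pol III genes and for no Pol II gene. It is named for polymerase A and C, an older name for Pol I and III, so its presence before their genes was no test. It was searched as GATGAG on both strands in the 250 bases before each start codon of the R64 reference. It was present for 7 of 8 Pol I genes, 8 of 10 Pol III genes and both genes shared by Pol I and III. It was found for 0 of 7 Pol II genes and 0 of 5 genes shared by all, and for 17% of 6012 coding genes of the table. A second motif often found beside it, RRPE, was searched as AAAATTTT, which reads the same on both strands. It was present for 7 of 8 Pol I, 5 of 10 Pol III and 2 of 7 Pol II genes, for 1 of the 2 genes shared by Pol I and III and for 2 of the 5 shared by all, against 8.63% of the coding genes. Both motifs stood before 13 of the 32 genes (40.6%) and before 4.08% of the coding genes. RPA12 of Pol I and RPC17 and RPC11 of Pol III had neither motif. The letters of the 2 motifs cannot overlap one another, and a match is a description of the sequence, not of a factor bound there. The following stretches are shown because they hold both motifs in genes of Pol I, of Pol III and of the shared pair. They are read 5′ to 3′ on the strand of the gene from the RefSeq R64 sequence, with PAC (GATGAG, or CTCATC for the other strand) and RRPE letters in capitals.
RPA190: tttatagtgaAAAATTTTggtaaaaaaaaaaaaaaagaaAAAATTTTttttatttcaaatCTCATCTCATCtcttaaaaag
RPA135: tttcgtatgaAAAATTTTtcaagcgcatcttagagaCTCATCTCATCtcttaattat
RPA49: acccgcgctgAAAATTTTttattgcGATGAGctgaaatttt
RRN3: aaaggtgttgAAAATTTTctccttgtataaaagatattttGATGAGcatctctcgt
RET1: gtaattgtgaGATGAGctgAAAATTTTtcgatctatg
RPC34: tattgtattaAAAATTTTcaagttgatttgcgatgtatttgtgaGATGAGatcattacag
RPC25: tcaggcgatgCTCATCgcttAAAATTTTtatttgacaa
RPC40: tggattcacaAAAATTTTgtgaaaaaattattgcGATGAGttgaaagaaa
In RPA190 and RPA135, the genes of the largest and second largest subunit of Pol I, PAC occurs as a pair of matches that share 1 base. RPC53 of Pol III, whose stretch is not shown, also has such a pair. The stretch of RPA190 begins 232 bases before its start codon, that of RPA135 145 bases before, that of RET1 139 bases before and that of RPC40 117 bases before. RPA190 and RPA43 are neighbours that are transcribed away from each other, and their 250-base windows share 0 bases. Among Pol II genes RPO21 had RRPE without PAC, as here:
RPO21: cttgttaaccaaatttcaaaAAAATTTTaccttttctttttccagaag

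**Figure D1:**
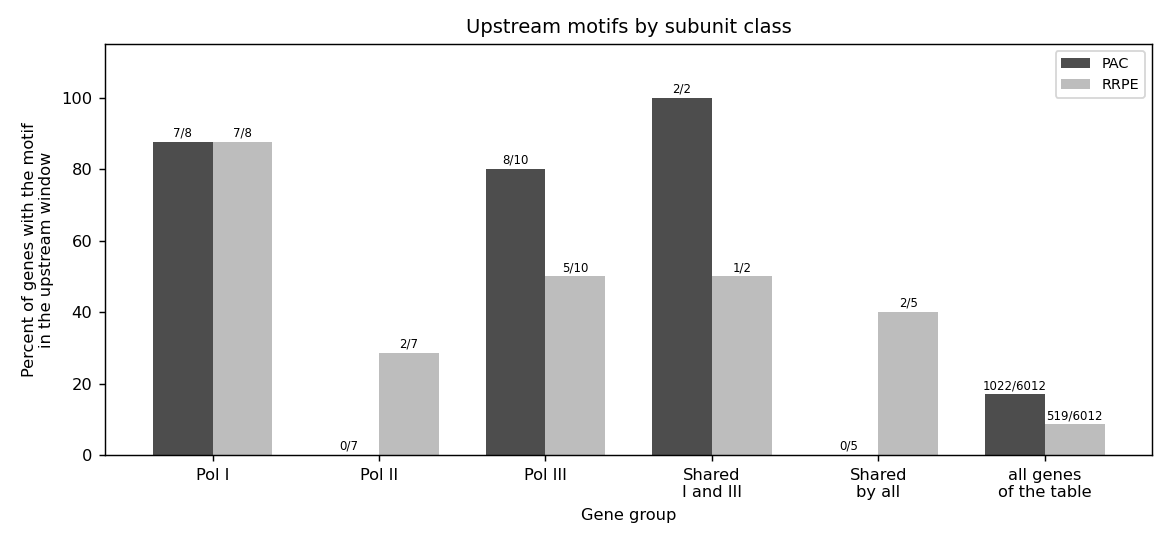
Share of genes (percent, vertical axis) with PAC (dark bars) or RRPE (light bars) in the 250 bases before the start codon, for each subunit class and for all 6012 coding genes of the table (horizontal axis), with counts above the bars. PAC is at 0 of 7 in Pol II and 0 of 5 in the genes shared by all, and at 7 of 8 in Pol I and 8 of 10 in Pol III.

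The libraries held 34215480 to 40628383 reads assigned to genes, taking the step between the values of a column as 1 read. MET17, which is deleted in BY4741, was at 0 in all of them. The genes of mating type a were abundant, with STE2 at 25638.5 to 26546 and MFA1 at 8609 to 10702.5 normalized reads, and those of mating type alpha were low, with STE3 at 302 to 378.2 and MF(ALPHA)1 at 29.2 to 49.7. GAL1, on whose strand the GAL10 noncoding RNA runs, had 133 and 115.7 normalized reads in the +116 libraries, against 410.6 and 468.9 in the scrambled libraries.

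Levels of the subunit genes were compared as normalized reads per kb of gene length, averaged over the 4 libraries. The genes for shared subunits stood above all the others. In each of the 4 libraries, the 7 genes for subunits of more than 1 polymerase had higher levels per kb than all 25 genes for subunits of 1 polymerase. The closest approach was in +116 B, where RPC19, the lowest shared gene, had 9033 and RPA34, the highest of the others, 8460 normalized reads per kb. The lengths are gene spans with introns counted and with no untranslated ends. Short genes had higher values per kb among the 32 (Spearman rho −0.70) and among all 5824 tested genes with a length (−0.25). This is a description across genes that share the same libraries. The shared genes are 213 to 1008 bp long, and 15 of the genes for 1 polymerase fall in that range. Lengths were not matched within it, as the shortest of those 15, RPC11, has 333 bp. Over those 15 the median level per kb was 4641 and 4703 in +116 A and B and 4929 and 5085 in scrambled A and B. The 7 shared genes had medians of 11201 and 11351 in +116 A and B and 12059 and 13745 in scrambled A and B. The ratio of the medians was thus 2.41 and 2.41 in the +116 libraries and 2.45 and 2.70 in the scrambled libraries.

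Among the genes shared by all polymerases, RPB10 (YOR210W), for a small zinc-binding subunit, had the highest level of the 32 at a mean of 22923 normalized reads per kb. RPB8 (YOR224C) followed with 16722, RPO26 (YPR187W) with 13908, RPC10 (YHR143W-A, also called RPB12), for another small zinc-binding subunit, with 12089, and RPB5 (YBR154C) with 9724. RPO26 has the 1 intron among the 32 genes, and with the intron left out of its length its level was 16166. RPC40 (YPR110C) and RPC19 (YNL113W), which form the assembly platform of Pol I and Pol III, had 10106 and 9791. RPB3 (YIL021W) and RPB11 (YOL005C), their counterparts in Pol II, had 4746 and 6367.

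The gene of the largest subunit had the lowest level per kb among the subunit genes of its enzyme, RRN3 left aside. RPO31 (YOR116C), the largest subunit gene of Pol III, had a mean of 971 normalized reads per kb, in a range of 945 to 1011 over the 4 libraries. RPO21 (YDL140C), which encodes the Pol II subunit with the C-terminal repeat domain, had 1636 (range 1440 to 1805), and RPA190 (YOR341W) of Pol I had 1766 (1723 to 1860). The ranges of RPO21 and RPA190 overlapped, and that of RPO31 lay below both. The second largest subunit gene was above the largest of the same enzyme in every library. The level of RPA135 (YPR010C) per kb was 2.10 and 2.07 times that of RPA190 in +116 A and B and 2.18 and 2.13 times in scrambled A and B. That of RPB2 (YOR151C) was 1.31 and 1.32 times that of RPO21 in the +116 libraries and 1.39 and 1.43 times in the scrambled libraries. That of RET1 (YOR207C) was 1.37 and 1.35 times that of RPO31 in the +116 libraries and 1.37 and 1.31 times in the scrambled libraries. RRN3 (YKL125W), which is no core subunit but recruits Pol I to its promoter, was the lowest of all at 925 normalized reads per kb.

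The peripheral subunits of Pol III were lower than those of Pol I and Pol II in most cases. Its stalk genes RPC17 (YJL011C) and RPC25 (YKL144C) had 2078 and 2592 normalized reads per kb. The stalk genes RPB7 (YDR404C) and RPB4 (YJL140W) of Pol II had 5925 and 7024, and RPA14 (YDR156W) and RPA43 (YOR340C) of Pol I had 3711 and 4812. RPC82 (YPR190C), RPC34 (YNR003C) and RPC31 (YNL151C), which form the Pol III subcomplex for initiation, had 1834, 3089 and 4461. RPC53 (YDL150W) and RPC37 (YKR025W), related to the Pol II factor TFIIF, had 3030 and 4028, against 5038 and 8835 for the similarly placed RPA49 (YNL248C) and RPA34 (YJL148W) of Pol I. The genes of the small subunits for RNA cleavage or their relative in Pol II were closer together, with RPA12 (YJR063W) at 6554, RPC11 (YDR045C) at 6226 and RPB9 (YGL070C) at 5349. The class medians kept the order Pol III, Pol I, Pol II in all 4 libraries, at 2704 to 2898 normalized reads per kb for Pol III, 4124 to 4580 for Pol I and 5121 to 5556 for Pol II. These class ranges over libraries did not overlap, and the classes differ in median length (901.5 bp, 1114.5 bp and 666 bp). The order was not tested.

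The comparison of the guides asks whether inhibition of the GAL10 noncoding RNA goes with other expression elsewhere in the genome, here in the transcription machinery. No subunit gene was called. Of the 32, 0 were higher and 0 lower with the +116 guide at a limma adjusted p under 0.05, against a background of 0.51% of tested genes called higher, 0.335% called lower and 0.844% called in either direction. The log2 folds, +116 over scrambled on the log2(value + 1) scale, ran from −0.22 (RPB10) to 0.23 (RPO21), with standard errors (SE) of 0.049 to 0.071. The 95% limma intervals, not adjusted for the number of genes, reached at most 1.28-fold lower (RPC17) and 1.27-fold higher (RPO21). At an unadjusted limma p under 0.05 the counts were 13 lower and 2 higher, against 10.3% and 11.5% of tested genes. In RNA from whole cultures, fewer cells expressing a gene and less RNA per cell cannot be told apart.

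The genes of the 2 largest subunits of each enzyme had log2 folds above 0, all 6 of them, and the other 26 genes had log2 folds below 0, as had 49.5% of tested genes. This division was seen in the values and is given without a test. RPO21 had 8974 and 9390.5 normalized reads in +116 A and B, against 8181 and 7493 in scrambled A and B. Both +116 libraries were above both scrambled libraries, as for 27.3% of tested genes, and the log2 fold of RPO21 was 0.23 (SE 0.055). Its limma adjusted p was 0.0559, the lowest of the 32 genes, and missed the threshold. RPB2, its catalytic partner, had 8279 and 8771 normalized reads in the +116 libraries, against 8050.3 and 7565 in the scrambled libraries. These groups did not overlap either, at a log2 fold of 0.13 (limma adjusted p = 0.191). RPA190 had 8777 and 9292 normalized reads with +116, against 8614 and 8607 with the scrambled guide, a log2 fold of 0.069. RPA135 had 13317 and 13887 with +116, against 13542 and 13254 with the scrambled guide, and its groups overlapped at a log2 fold of 0.022. RPO31 had 4229 and 4431 with +116, against 4226 and 4142 with the scrambled guide, a log2 fold of 0.049. The +116 A value of RPO31 lay only just above scrambled A. RET1 had 4552 and 4704 with +116, against 4546 and 4283 with the scrambled guide, a log2 fold of 0.069.

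Among the 26 genes with log2 folds below 0, RPB10 was lowest, followed by RPA12 and RPC17, and the genes shared by all had the lowest median of the classes. RPB10 had 4721 and 4319 normalized reads in the +116 libraries, against 5181 and 5311 in the scrambled libraries, a log2 fold of −0.22 (SE 0.055, limma adjusted p = 0.0675). RPC10 had 2386 and 2418 with +116, against 2569 and 2928 with the scrambled guide, a log2 fold of −0.19. RPO26 had 7329 and 6909 with +116, against 7809 and 8215 with the scrambled guide, a log2 fold of −0.17. RPB5, which forms part of the jaw of the enzymes, had 5983 and 5987 with +116, against 6482 and 6752 with the scrambled guide, a log2 fold of −0.14. In all 5 genes shared by all polymerases both +116 libraries lay below both scrambled libraries, as for 26.3% of tested genes. The median log2 fold of the 5 was −0.17. RPB8, at −0.079, was the highest of them.

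Pol I and Pol III showed a like spread. In Pol I, RPA12 had 2298 and 2293 normalized reads with +116, against 2575 and 2744 with the scrambled guide, a log2 fold of −0.21 (limma adjusted p = 0.0749). RPA14 had 1452 and 1421 with +116, against 1585 and 1687 with the scrambled guide, a log2 fold of −0.19, and RPA34 had −0.16. RRN3 had 1755 and 1709.7 with +116, against 1708 and 1797 with the scrambled guide, and these groups overlapped. In Pol III, RPC17 had 985 and 895 with +116, against 1056 and 1103 with the scrambled guide, a log2 fold of −0.20. RPC31 had 3217 and 3149.9 with +116, against 3548 and 3574 with the scrambled guide, a log2 fold of −0.16. The next lowest were RPC34 (−0.16) and RPC11 (−0.13), and no limma adjusted p of a Pol III gene was below 0.110. The shared gene RPC19 had 4041 and 3875 with +116, against 4272 and 4613 with the scrambled guide, a log2 fold of −0.17, and RPC40 had −0.056.

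By class the median log2 fold was −0.11 for Pol I, −0.045 for Pol II, −0.084 for Pol III, −0.11 for the pair shared by Pol I and III and −0.17 for the genes shared by all. The Pol II median was −0.084 without +116 A, −0.0020 without +116 B, −0.077 without scrambled A and −0.017 without scrambled B. Over the 32 it was −0.084, against 0.0013 over all tested genes. Both +116 libraries were below both scrambled libraries for 22 of the 32 genes and above them for 5, against 26.3% and 27.3% of tested genes. The 5 Pol II genes with log2 folds below 0 were RPB3, RPB4, RPB7, RPB9 and RPB11, between −0.10 and −0.043, and 3 of these had overlapping groups. Together the 32 genes took 0.403% and 0.406% of the normalized reads in +116 A and B, against 0.419% and 0.416% in scrambled A and B.

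**Figure D2:**
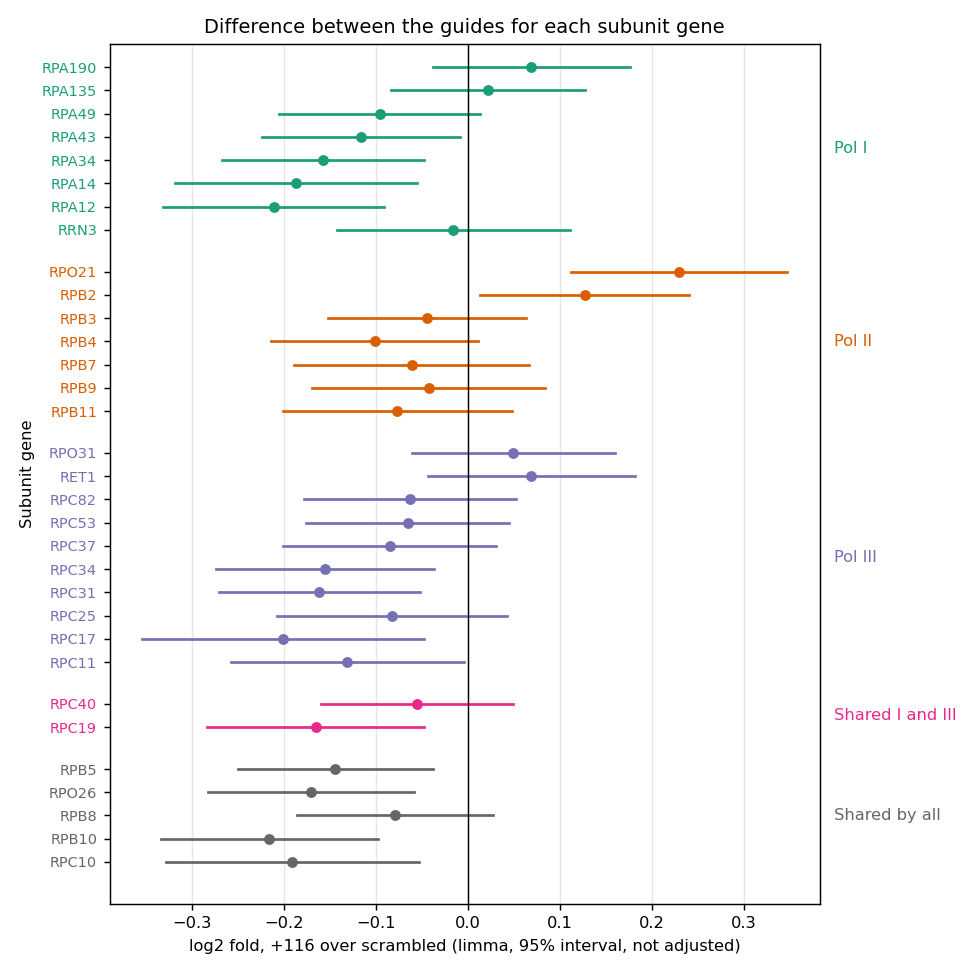
Log2 fold, +116 over scrambled (horizontal axis), for each subunit gene (rows, coloured by class), with points for the limma estimate and lines for the 95% interval that is not adjusted for the number of genes. RPO21 has the highest value, 0.23, and RPB10 the lowest, −0.22, and only RPO21 and RPB2 have intervals wholly above 0.

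The libraries of 1 group also differed in these genes. Relative to each gene's mean over the 4 libraries, the median of the genes shared by all was −0.044 and −0.086 in +116 A and B and 0.043 and 0.12 in scrambled A and B. For Pol II it was 0.019 and −0.062 in +116 A and B and −0.012 and 0.051 in scrambled A and B. The Pol II medians of the 2 guides thus overlapped, while those of the other classes did not. RPO21 was called higher with a minimum mean of 50 normalized reads in place of 5 (log2 fold 0.23, limma adjusted p = 0.0491). In that setting 82 of 5689 tested genes were called higher. RPB10 and RPA12 were called lower with upper-quartile scaling (−0.24 and −0.23, limma adjusted p = 0.0367 and 0.0452). With that scaling 77 of 6277 tested genes were called lower. With 1 library left out at a time, the log2 fold of RPO21 ran from 0.17 to 0.29. That of RPB10 ran from −0.28 to −0.15 and that of RPO26 from −0.21 to −0.13.

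**Figure D3:**
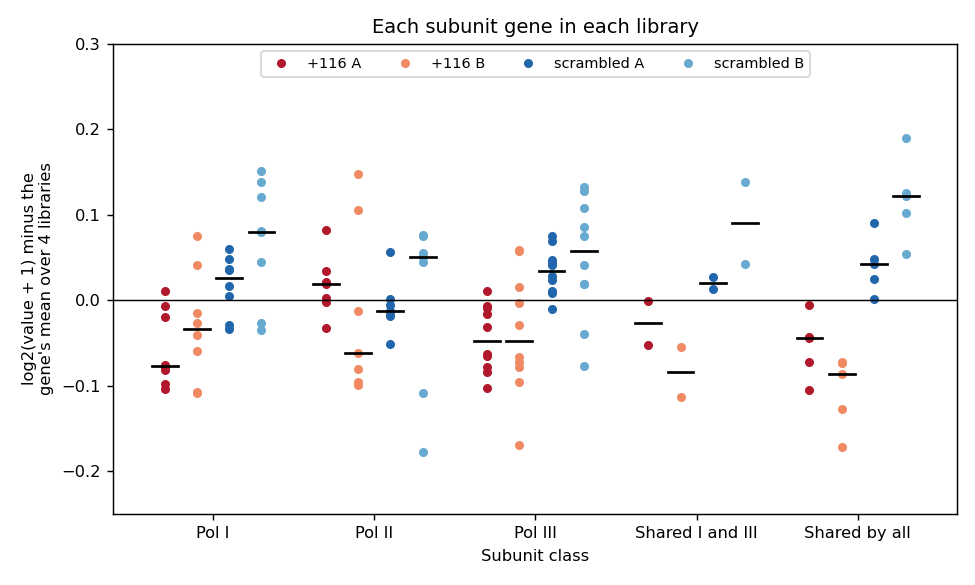
Log2(value + 1) of each subunit gene minus the gene's mean over the 4 libraries (vertical axis) by class (horizontal axis), with 1 column of points per library (+116 A and B in reds, scrambled A and B in blues) and black bars for medians. For the genes shared by all the bars run from −0.086 in +116 B to 0.12 in scrambled B.

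Gene length moved with these values. Across the 32 genes the log2 fold had a Spearman rho of 0.73 with length and a slope of 0.066 per doubling, and across the 5824 tested genes with a length the rho was 0.55 and the slope 0.054, as a description across genes that share the same 4 libraries. Within the 26 genes other than the largest pairs the slope was 0.040. The slope over the 32 genes was −0.035 for +116 A minus +116 B and 0.038 for scrambled A minus scrambled B, so libraries with the same guide differed by length as well. It was 0.030 for +116 A minus scrambled A and 0.10 for +116 B minus scrambled B. The 6 genes of the largest pairs have a median length of 4029 bp, the other 26 one of 643.5 bp and all tested genes one of 1221 bp. The part of length in the difference between long and short subunit genes was not tested beyond the correction that follows.

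After the log2 values of each library were corrected for length, 0 of the 32 genes were called by limma, against 0.0859% of 5824 genes. At an unadjusted limma p under 0.05 they held 11 lower and 1 higher, against 8.16% and 6.3% of the 5824 genes. Of the 6 largest-pair genes, 4 had corrected log2 folds below 0. RPO21 remained the highest at 0.12 (limma adjusted p = 0.297) and RPB2 was at 0.017. RPA190, RPA135, RPO31 and RET1 had −0.039, −0.088, −0.061 and −0.040. The classes then had median log2 folds of −0.092 for Pol I, 0.011 for Pol II, −0.065 for Pol III, −0.059 for the pair shared by Pol I and III and −0.10 for the genes shared by all, against −0.0093 over all genes with a length. Values below 0 numbered 8 of 8 in Pol I, 10 of 10 in Pol III, 2 of 2 in the shared pair, 5 of 5 in the genes shared by all and 2 of 7 in Pol II, against 54.4% of all genes with a length. With 1 library left out at a time these counts were 8 of 8 in Pol I each time, 9 or 10 of 10 in Pol III, 4 or 5 of 5 in the genes shared by all and 2 to 4 of 7 in Pol II. The differences between the classes were not tested, and the lowest limma adjusted p of a single subunit gene was 0.216 (RPB10, −0.15). The 17 genes with PAC upstream all had corrected values below 0, from −0.13 to −0.020, and 10 of the 15 without it did. The exceptions were all Pol II genes, and the genes without PAC in the other classes were all below 0 too. Without the correction 13 of the 17 and 13 of the 15 were below 0, at medians of −0.083 and −0.10. Among all 978 tested genes with PAC, 667 had corrected values below 0.

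**Figure D4:**
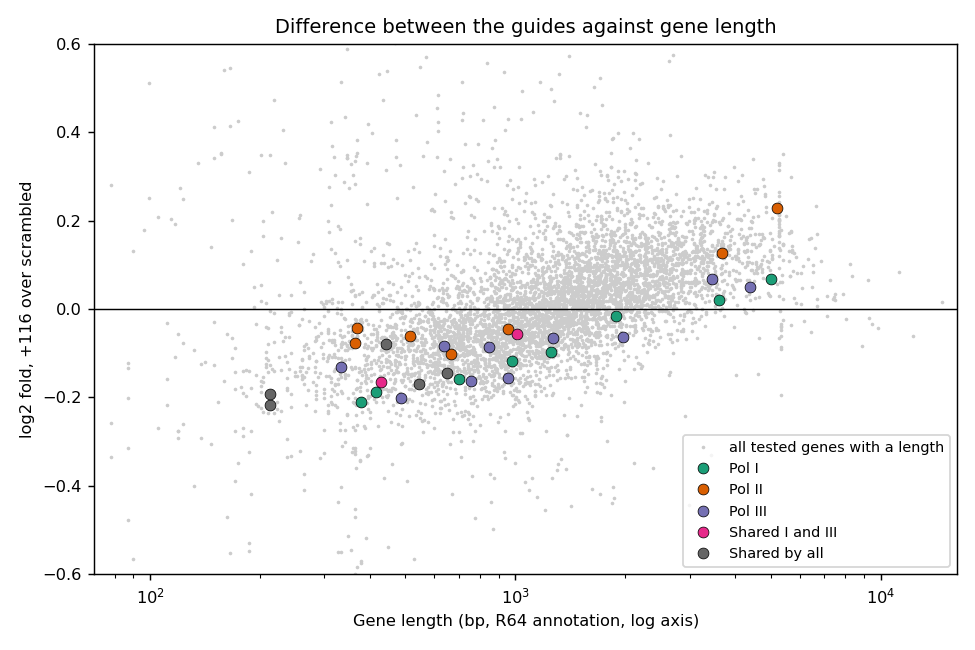
Log2 fold, +116 over scrambled (vertical axis), against gene length in bp (horizontal log axis), for the subunit genes coloured by class over all tested genes with a length in grey; 55 grey genes lie outside the drawn range of 0.6 on either side. The 6 genes of the largest subunits lie above 0 and the shorter genes below it, within the grey band.

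Other genes of the transcription machinery were taken as 5 lists with 54 genes, all of them tested, and 0 were called by limma in either direction, against 0.844% of tested genes. At an unadjusted p under 0.05 they held 2 higher and 5 lower, against 11.5% and 10.3% of tested genes. The initiation factors of Pol I had 6 of 8 genes below 0 and a median log2 fold of −0.039, from RRN11 of the core factor (−0.15, limma adjusted p = 0.148) to RRN10 of the upstream activation factor (0.10). For Pol III the list of initiation factors with the repressor MAF1 had 5 of 10 genes below 0 and a median of 0.0015. MAF1 was its lowest at −0.088, and TFC4, of the factor TFIIIC, its highest at 0.15. The general transcription factors of Pol II had 13 of 20 genes below 0 and a median of −0.047, with TFB5 at −0.14 and SSL2 at 0.10, both of the factor TFIIH. The kinases and phosphatases of the C-terminal domain had 6 of 8 below 0 and a median of −0.012, between CTK2 (−0.095) and BUR2 (0.081). Factors for assembly and nuclear import of the polymerases had 6 of 8 below 0 and a median of −0.0077. RTR1 was the highest of that list, at a log2 fold of 0.070. The lowest was GPN3, a GTPase gene, at −0.18 (limma adjusted p = 0.109). GPN3 had 1848 and 1822 normalized reads with +116, against 2094 and 2059 with the scrambled guide. After the length correction the list medians were −0.015 for the Pol I factors, −0.039 for the Pol III factors with MAF1, −0.023 for the general factors, −0.016 for the kinases and phosphatases and −0.058 for the assembly and import factors, against −0.0093 over all genes with a length. Values below 0 then numbered 5 of 8, 6 of 10, 15 of 20, 4 of 8 and 6 of 8 in the same order, against 54.4% of those genes, and the median of the Pol III list changed sign.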

How the data were processed

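Poly(A) RNA was sequenced in 4 libraries from a stranded kit, per the labels' protocols. The authors deposited 1 table with a normalized read count per gene, a signal that is never negative. Every value of a column was a whole multiple of 1 step within a tolerance of 1e-06 of the step, which is what gene counts divided by 1 size factor per library give. DESeq2, Picard 1.84, Bowtie2, TopHat, TopHat2 2.0.8, Trimmomatic 0.30 and bcl2fastq 1.8.4 appear as tools, per the submitters' processing notes. No build, annotation, read counter or strand setting is given in the sources used here. Names, lengths and upstream sequence came from the RefSeq R64 assembly, which may not be the authors' build, so no coordinates are printed. In it RPA14 overlaps the gene YDR157W by 8 bases, and no other member overlaps a gene.

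The groups follow the guide in the labels. Genes with a mean of at least 5 entered a limma 3.58.1 fit (R 4.3.3) on log2(value + 1), where the added 1 understates the change of low genes. The fit had an intensity-dependent prior variance (trend). The test was two-sided, with Benjamini-Hochberg adjustment over all 6277 genes and a threshold of 0.05. It was also run on simulated data with larger changes than those of the subunit genes and no dependence on gene length. That run thus does not show how the test handles changes as small as theirs. Of the rows, 6079 had a length. The length correction subtracts, in each library, a spline in log2 length. Alternatives changed the pseudocount, filter, scaling, trend, replicate block and length correction, or left out 1 library. All 32 subunit genes were to be named, and from each other list its highest and lowest gene. The members and lists were chosen with earlier results of these data known.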

Additional observations from a re-analysis of the deposited data

How the results depend on the processing

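Over 12 alternatives the 32 genes kept the sign of their log2 fold except for 8 genes, and 4 were called in at least 1 alternative. Subunit genes called higher numbered 1 with a minimum mean of 50, and 0 to 1 with a library left out, and those called lower numbered 2 with upper-quartile scaling and 0 to 2 with a library left out. With 1 library left out, the lone library of a guide is assumed to vary like the other pair. The length correction turned the sign of RPA190 (−0.039), RPA135 (−0.088), RPB7 (0.011), RPB9 (0.035), RPB11 (0.00037), RPO31 (−0.061) and RET1 (−0.040). With a library left out RPA135 ranged from −0.0087 to 0.052, RRN3 from −0.053 to 0.021 and RPB7 from −0.13 to 0.0040. The median log2 fold moved with the length correction to 0.011 for Pol II, −0.065 for Pol III and −0.10 for the genes shared by all. The Pol III median was −0.10 with upper-quartile scaling, which moved the median of all genes to −0.019, and −0.10 to −0.082 with a library left out, where the genes shared by all had −0.21 to −0.12 and Pol II −0.084 to −0.0020. The median level per kb of the genes shared by all was 13908, or 16166 when the RPO26 intron was not counted. The causes of these moves were not tested. Over all genes 32 were called higher and 21 lower, against 2 and 5 with no filter, 82 and 55 with a minimum mean of 50, 50 and 77 with upper-quartile scaling, 0 and 1 without a trend, 0 and 5 after the length correction, 132 and 104 without +116 A, 207 and 75 without +116 B, and 0 and 0 without scrambled A or without scrambled B. The planned edgeR and DESeq2 fits on whole reads were not run, because the steps of the +116 columns lie so near 1 that they were not accepted as recovered reads for a count test.

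The letters A and B give no stated pairing, and the deviations of same-lettered libraries correlated at a Pearson r of −0.041 over 6277 genes (Spearman rho −0.15). With the replicate block 1 subunit gene was called higher (RPO21) and 1 lower (RPB10), and over all genes 170 and 88.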

Other observations

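The sequence pattern of the Pol I and Pol III genes was followed beyond them, a look chosen after the values were seen. Among tested genes other than the subunit genes, 231 had both PAC and RRPE in the 250 bases before the start codon. Of these, 187 had a log2 fold below 0 with the +116 guide, at a median of −0.069, while 49.0% of the 5799 tested coding genes with a window were below 0, at a median of 0.0035. Of the 231, 1 was called lower and 0 higher by limma, against 0.335% and 0.51% of all tested genes. After the length correction 210 of the 231 were below 0, at a median of −0.085, against 54.4% and −0.0093 over the coding genes. With a library left out the median without the length correction ranged from −0.087 to −0.061, and that with it from −0.096 to −0.077. The shift was smaller over the 978 tested genes with PAC, with or without RRPE and subunit genes included. Of those, 609 were below 0, at a median of −0.037, and 667 after the length correction, at −0.042. All these genes share the same 4 libraries and are not independent, and no test was made.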
